A study of Homo sapiens with 2 samples.

Results

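The NF-kB pathway and the inflammatory cytokines it controls were followed through 42 genes, of 18132 genes named on the array, in HCT116 cells with and without a knockdown of SUN2. The genes were chosen by symbol, and a probe set was used when the platform annotation gave it 1 gene symbol. By that rule 39 of the 42 genes had probe sets, 113 in all. CSF2, TRAF2 and SOD2 had none with 1 symbol. HCT116 is a human colorectal carcinoma cell line, grown here in DMEM with fetal bovine serum. The knockdown group was 1 sample of HCT116 cells with the short hairpin RNA shSUN2-1. The control group was 1 sample of HCT116 cells with a scrambled hairpin. Total RNA of each was hybridized to 1 Affymetrix array, so 1 hairpin and 1 array stand for each group, and no p-value, SD or SE between cultures can be given for any value below.

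NF-kB is a family of dimeric transcription factors built from the subunits RELA, RELB, REL, NFKB1 and NFKB2. In resting cells IkB proteins hold the dimers in the cytoplasm. Receptors for TNF, interleukin 1 and microbial products act through adaptors on the IKK complex, which marks IkB for destruction and frees the dimers. Among these adaptors MYD88 and TRAF6 serve the interleukin 1 and Toll-like receptors. The freed dimers induce chemokines and cytokines and also their own inhibitors, NFKBIA and TNFAIP3 among them, which closes a negative feedback loop. In the intestine the pathway drives the epithelial chemokine response to injury and bacteria.

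Of the 39 genes measured, IL18 was the only one that the knockdown array showed 1.5-fold or more higher, and none was 1.5-fold or more lower. The IkB gene NFKBIA, the kinase gene CHUK and the subunit gene NFKB1 were higher by smaller amounts. Of the 12220 genes on the array that passed the same filter, 299 had a larger increase than NFKBIA, 664 than CHUK and 1421 than NFKB1. Genes for secreted ligands other than IL18 were for the most part slightly lower or too dim to pass the filter described below. A difference is given throughout as the knockdown minus the control on the log2(intensity + 16) scale, from the brightest probe set of a gene. A gene passed the filter on low values when the mean of both arrays for that probe set reached the median of all probe sets other than array controls, an intensity of 108. For scale, the SD of single probe sets about the mean of their gene was 0.09 on this log2 scale, over 5786 genes with more than 1 probe set above the median. That SD covers probe error within these arrays and no variation between cultures.

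The knockdown was small at the RNA level. SUN2, which encodes an inner nuclear membrane protein of the complex that couples the nucleus to the cytoskeleton, read 407 in the knockdown array and 498 in the control array on its brightest probe set, a difference of -0.28. All 6 SUN2 probe sets were lower in the knockdown array, by -0.39 to -0.05. Intensities of the 2 arrays correlated across probe sets with r = 0.995 on the log2 scale. Of the epithelial marker list 10 of 11 genes passed the filter, and 9 of those 10 were higher in the knockdown array. The 11 summed to 10241 intensity units in the knockdown array and 8899 in the control array. As 67.4% of all genes passed, a marker past the filter need not be expressed. The 14 measured immune markers summed to 2010 intensity units in the knockdown array and 2095 in the control array, and 6 of the 7 past the filter were lower. Fibroblast markers summed to 1062 in the knockdown array and 1114 in the control array, and 4 of 10 passed the filter, all 4 lower. Endothelial markers summed to 1265 in the knockdown array and 1342 in the control array, and 6 of 9 passed, all 6 lower. Across all genes past the filter 49.8% were higher and 50.2% lower. Background controls, which are probes without a human target, were lower for 20 of 23. Their part in the marker differences was not tested, and the sums include markers below the median. As the arrays measured RNA pooled over each culture, a difference in few cells and a smaller difference in all cells cannot be told apart.

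A total of 24 genes passed the filter, with 45 of the 113 probe sets above the median. That is 61.5% of the 39 measured genes, where 67.4% of all genes on the array passed. The 24 included the chemokine genes CXCL1, CXCL16 and CCL20, and the cytokine genes IL1RN, IL18, IL32, LIF, TNF and CSF1. The signalling genes above the median were IL6ST, MYD88, TRAF6, IKBKB and CHUK. The inhibitor and subunit genes above it were NFKBIA, NFKBIB, NFKBIE, NFKBIZ, TNIP1, NFKB1, NFKB2, RELA and RELB, and the last was the induced gene TNFAIP2. The other 15 genes had their brightest probe set below the median: CXCL8, CXCL2, CXCL3, CXCL5, IL1A, IL1B, IL6, IL15, IL6R, TLR3, IKBKG, TNFAIP3, REL, ICAM1 and PTGS2. Those 15 genes read between 47.3 and 106.5 in the knockdown array and between 46.8 and 111 in the control array. Background controls, probes without a human target that are graded by base composition, covered such intensities with at most 17 G or C bases. Transcript of these 15 genes could thus not be told from background. Controls with 16 to 23 such bases read 94.2 to 678 in the knockdown array and 98.6 to 751 in the control array. That range covers the 24 genes past the filter as well, so passing it does not by itself show transcript. The differences of the 15 genes below the filter ran from -0.15 for IL6 to 0.16 for TNFAIP3, with 7 higher and 8 lower.

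**Figure D1:**
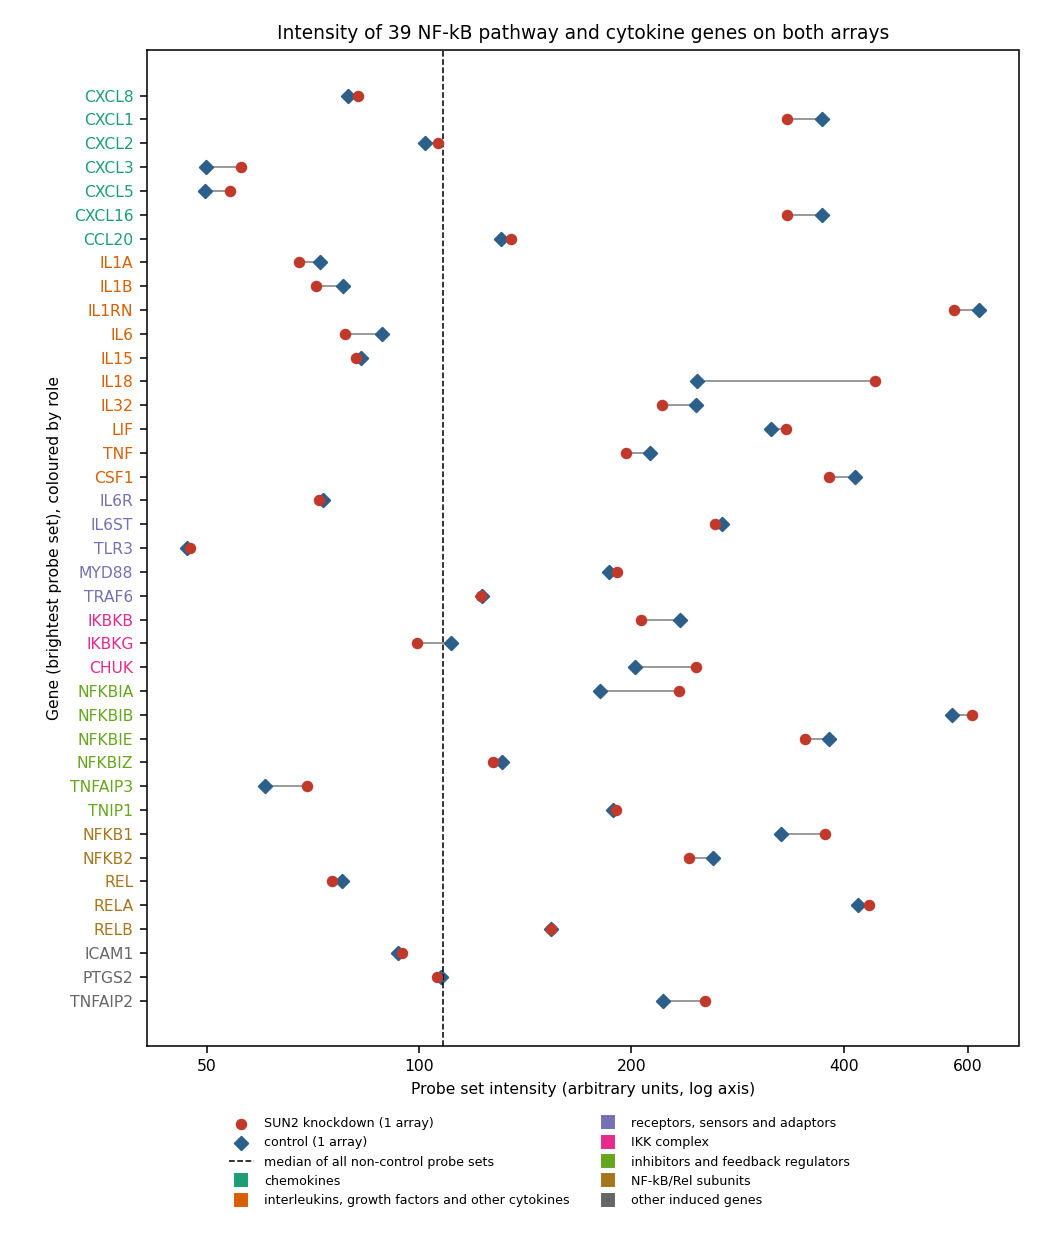
Intensity of the brightest probe set of each of the 39 measured genes in the SUN2 knockdown array (circles) and the control array (diamonds), on a log axis, with genes coloured by role and a dashed line at the median of all probe sets other than controls. The longest connecting line belongs to IL18, at 443 in the knockdown array against 248 in the control array, while the 15 genes below the filter read 111 or less on both arrays.

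Of the 7 chemokine genes 3 passed the filter, with CXCL1 and CXCL16 lower and CCL20 higher by small amounts. CXCL1, a neutrophil attractant that acts on the receptor CXCR2, read 332 in the knockdown array and 372 in the control array on its 1 probe set above the median, a difference of -0.16. Its second probe set, below the median, read 92.8 in the knockdown array and 87.2 in the control array. No direction could be read below the median, so the CXCL1 decrease rests on 1 probe set. CXCL16, which is both a scavenger receptor and the ligand of CXCR6, read 333 in the knockdown array and 373 in the control array, again -0.16. Its other probe set above the median differed by 0.02, so the decrease was seen on only 1 of the 2. CCL20, which attracts CCR6-bearing lymphocytes, read 135 in the knockdown array and 131 in the control array, a difference of 0.04 on its only probe set. CXCL8, the classic neutrophil chemokine of inflamed epithelium, read 81.9 in the knockdown array and 79.2 in the control array at most, which is in the range of background.

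Of these genes CXCL8, CXCL1, CXCL5, CXCL3 and CXCL2 lie in that order within a stretch of 9 protein-coding genes on chromosome 4 in the RefSeq annotation. CXCL1 and its neighbour PF4V1, a platelet factor variant, were the 2 that passed the filter, at -0.16 and -0.06. The other 7 were below the median, where no direction could be read. CXCL1, CXCL2 and CXCL3 are close paralogs, and 1 further probe set carried the symbols of both CXCL1 and CXCL2. That probe set read 154 in the knockdown array and 174 in the control array, a difference of -0.17, and names neither gene.

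An NF-kB consensus motif, GGG, then any 3 bases, then TTCC, was present upstream of 4 of these neighbours. The matches are shown because they are shared between genes of which only CXCL1 passed the filter. Each line gives 30 bases, read 5′ to 3′ on the strand of the gene, with the match in capitals. Sequences and coordinates are those of RefSeq on GRCh38.p14, and positions count from the first transcribed base.
CXCL1: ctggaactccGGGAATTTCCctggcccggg
CXCL2: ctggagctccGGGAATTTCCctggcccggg
CXCL3: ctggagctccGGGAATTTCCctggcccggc
CXCL5: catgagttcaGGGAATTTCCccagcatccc
The matches begin at position -79 in the window chr4:73869143-73869442 on the plus strand for CXCL1, and at -78 in chr4:74099146-74099445 on the minus strand for CXCL2. Those of CXCL3 and CXCL5 begin at -79 in chr4:74038640-74038939 and at -91 in chr4:73998628-73998927, both on the minus strand. All 4 have the same 10 letters at the match.

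IL18 stood apart from the other cytokine genes. It encodes a cytokine of the interleukin 1 family that intestinal epithelium makes as an inactive precursor and that caspase 1 cleaves. IL18 read 443 in the knockdown array and 248 in the control array, 179% of control. The difference of 0.80 is 1.74-fold. Across the 12220 genes past the filter, an increase of 1.5-fold or more was found for 0.336% and a decrease of that size for 0.0245%, and 18 genes had a larger increase than IL18. Its value rests on 1 probe set, of the class that the array design names _x_at because some probes may match other transcripts. The mean of both arrays for it was above 18 of the 23 background controls. The value without that class could not be given, since IL18 has no other probe set. Of the 10 epithelial markers past the filter 9 were higher as well, from CLDN4 at 0.002 to KRT8 at 0.34, with CLDN3 at -0.09 and a median of 0.07. Their part in the IL18 result was not tested.

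Genes that handle IL-18 passed the filter in part. They form a list of 14, chosen after the IL18 value was seen, of which 10 were below the median. CASP1, the protease that matures IL-18, NLRP3, NLRC4 and AIM2, which assemble the inflammasome that activates it, and IL18BP, its secreted antagonist, were among those 10. Of the 4 genes past the filter, CASP4, an inflammatory caspase that senses bacterial lipopolysaccharide, read 253 in the knockdown array and 192 in the control array, a difference of 0.37. Its 3 probe sets above the median were all higher, by 0.26 to 0.37. The pore-forming protein gene GSDMD differed by -0.16, the inflammasome adaptor PYCARD by -0.10 and the receptor subunit IL18RAP by 0.01. IL18R1, the other receptor subunit, was also among those below the median.

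The remaining cytokine genes were level or slightly lower. Background controls were lower as well, and those near the intensity of CSF1, IL1RN and NFKBIE by similar amounts. The control with 21 G or C bases read 342 in the knockdown array and 367 in the control array, a difference of -0.10, and that with 22 read 546 in the knockdown array and 595 in the control array, a difference of -0.12. Dimmer controls, near the intensity of IL32, TNF, NFKB2 and IKBKB, were lower by less than those genes. One that read 222 in the knockdown array and 236 in the control array differed by -0.08, against -0.15 for IL32 and -0.17 for IKBKB. CXCL1 and CXCL16, each at -0.16, were lower by more than the control of like intensity, at -0.10. The part of background in the cytokine decreases, and in those of CXCL1, CXCL16, NFKB2, NFKBIE and IKBKB, was not tested. IL32, a pro-inflammatory cytokine that rodents lack, had all 4 probe sets above the median and all 4 lower. Its brightest read 221 in the knockdown array and 247 in the control array, a difference of -0.15, and the other 3 lay between -0.13 and -0.04. CSF1, the growth factor of macrophages, read 381 in the knockdown array and 415 in the control array, a difference of -0.12, and its second probe set above the median differed by -0.09. IL32 and CSF1 were the 2 of 10 genes with more than 1 probe set above the median for which all of these were lower, where 29.4% of such genes on the array had all probe sets lower. IL1RN, the antagonist of the interleukin 1 receptor, read 574 in the knockdown array and 622 in the control array, a difference of -0.11, while its other probe set lay below the median. TNF, an upstream activator as well as a target of NF-kB, read 196 in the knockdown array and 213 in the control array on its only probe set, a difference of -0.11. LIF, a ligand of IL6ST, read 331 in the knockdown array and 315 in the control array, a difference of 0.07, and its second probe set above the median gave -0.06. IL1A, IL1B, IL6 and IL15 were below the median with differences of -0.08, -0.11, -0.15 and -0.02.

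**Figure D2:**
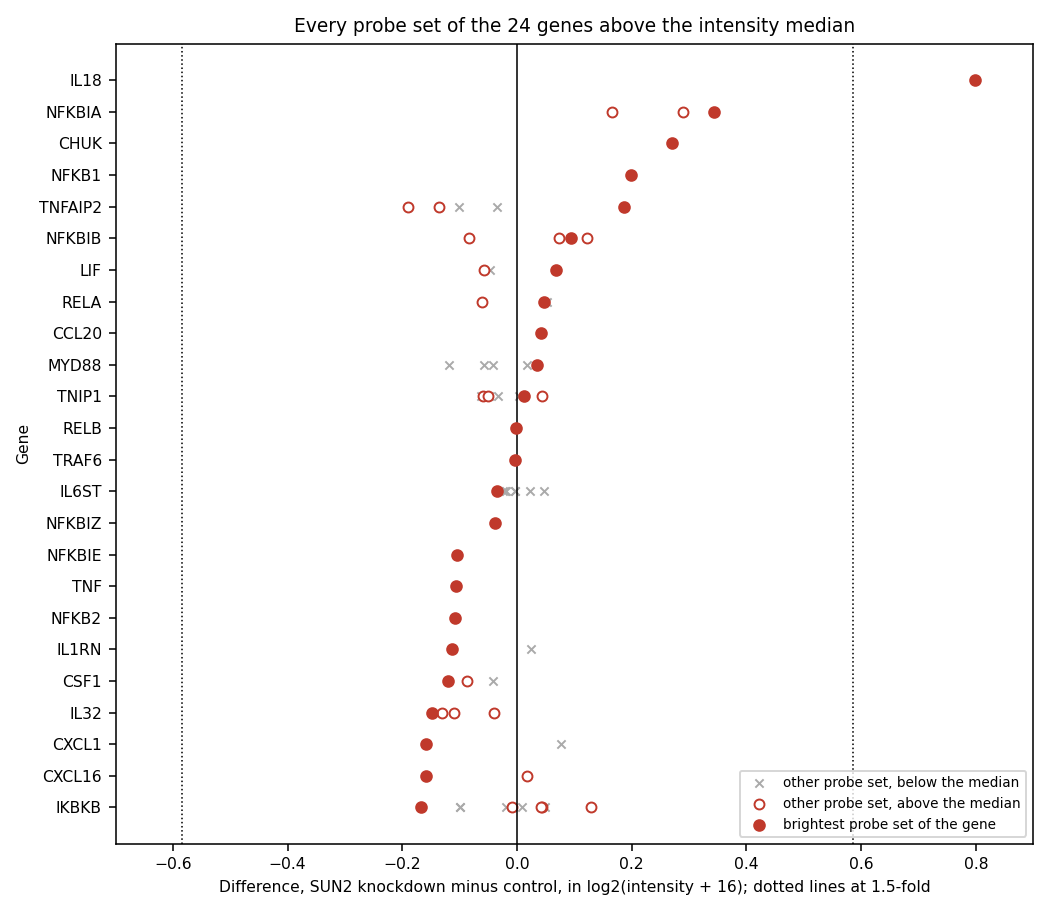
Difference between the SUN2 knockdown and the control in log2(intensity + 16) for every probe set of the 24 genes past the filter, sorted by the brightest probe set (filled circles), with other probe sets above the median as open circles and those below it as crosses. IL18 at 0.80 is the only point past the dotted 1.5-fold lines, all 3 NFKBIA points lie right of 0, and TNFAIP2 and IKBKB have points on both sides.

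Receptor and adaptor genes hardly differed. IL6ST, the shared signalling chain for IL-6 and LIF, read 263 in the knockdown array and 269 in the control array, a difference of -0.03. MYD88, the adaptor of Toll-like and interleukin 1 receptors, read 190.6 in the knockdown array and 186 in the control array, a difference of 0.03. TRAF6, the ubiquitin ligase downstream of MYD88, read 122 in the knockdown array and 123 in the control array, a difference of -0.004. These 3 lie closer to 0 than the scatter between probe sets of a gene. IL6R, the receptor for IL-6, and TLR3, the sensor of double-stranded RNA, were below the median with differences of -0.01 and 0.01.

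Of the IKK genes, CHUK was higher and IKBKB gave no uniform reading. CHUK encodes IKK alpha, the catalytic subunit that also drives the non-canonical branch through NFKB2. It read 247 in the knockdown array and 202 in the control array on its only probe set, a difference of 0.27 or 1.21-fold. IKBKB, which encodes IKK beta, the main kinase of IkB, read 207 in the knockdown array and 234 in the control array on its brightest probe set, a difference of -0.17. Its other 4 probe sets above the median lay between -0.01 and 0.13, and all 11 averaged -0.01. IKBKG, the regulatory subunit NEMO, stood at 99.3 in the knockdown array and 111 in the control array, with a mean of the 2 arrays below the median and a difference of -0.14.

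Among the inhibitors NFKBIA differed most. NFKBIA encodes IkB alpha, the inhibitor that NF-kB itself induces. Its brightest probe set read 233 in the knockdown array and 181 in the control array, another read 195 in the knockdown array and 172 in the control array, and the last read 157 in the knockdown array and 126 in the control array. All 3 were higher in the knockdown array, by 0.34, 0.17 and 0.29. Those at 0.34 and 0.17 are of the _x_at class, in which some probes may match other transcripts. Of 2595 genes on the array with at least 3 probe sets above the median, 31.6% had all of them higher. The difference of 0.34 is 1.27-fold, and 299 of the 12220 genes had a larger increase. On this scale NFKBIA and IL18 were the 2 of 24 genes at least 25% higher, against 3.09% of all genes past the filter, and none of the 24 was 20% or more lower, against 0.442%.

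The other inhibitors did not follow NFKBIA. NFKBIB, or IkB beta, read 609 in the knockdown array and 569 in the control array, a difference of 0.09, and its 4 probe sets lay between -0.08 and 0.12. NFKBIE, or IkB epsilon, read 353 in the knockdown array and 381 in the control array on its only probe set, a difference of -0.10. NFKBIZ, an atypical nuclear IkB protein that acts as a cofactor at some targets, differed by -0.04. TNIP1, a partner of the A20 protein, differed by 0.01 on its brightest probe set and by -0.06 to 0.04 over the 4 above the median. TNFAIP3, which encodes A20, the ubiquitin-editing feedback inhibitor, read 69.4 in the knockdown array and 60.4 in the control array. Both values are below the median, where the difference of 0.16 could not be told from a difference in background, and its second probe set differed by -0.03.

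The subunit genes differed little. NFKB1, which encodes p105 and its product p50, read 376 in the knockdown array and 326 in the control array on its only probe set, a difference of 0.20 or 1.15-fold. RELA, the main activating subunit p65, read 434 in the knockdown array and 419 in the control array, a difference of 0.05, and its second probe set above the median gave -0.06. NFKB2, which encodes p100 and p52 of the non-canonical branch, read 241 in the knockdown array and 261 in the control array, a difference of -0.11. RELB, the partner of p52, read 153.8 in the knockdown array and 154.1 in the control array, a difference of -0.003. REL, a subunit best known from lymphocytes, was below the median.

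Among other induced genes TNFAIP2, a TNF-inducible gene of endothelial and epithelial cells, had probe sets that disagreed. Its brightest read 254 in the knockdown array and 222 in the control array, a difference of 0.19, whereas the other 2 above the median differed by -0.14 and -0.19. ICAM1, the leukocyte adhesion molecule, read 94.6 in the knockdown array and 93.3 in the control array, below the median. PTGS2, which encodes the inducible cyclooxygenase, read 106.0 in the knockdown array and 107.3 in the control array, just under the median, and differed by -0.02. The mitochondrial superoxide dismutase gene SOD2 appeared only on 4 probe sets that also carry the symbol of its overlapping transcript SOD2-OT1. These differed by 0.06, 0.04, -0.06 and -0.23, and no value was assigned to SOD2.

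**Figure D3:**
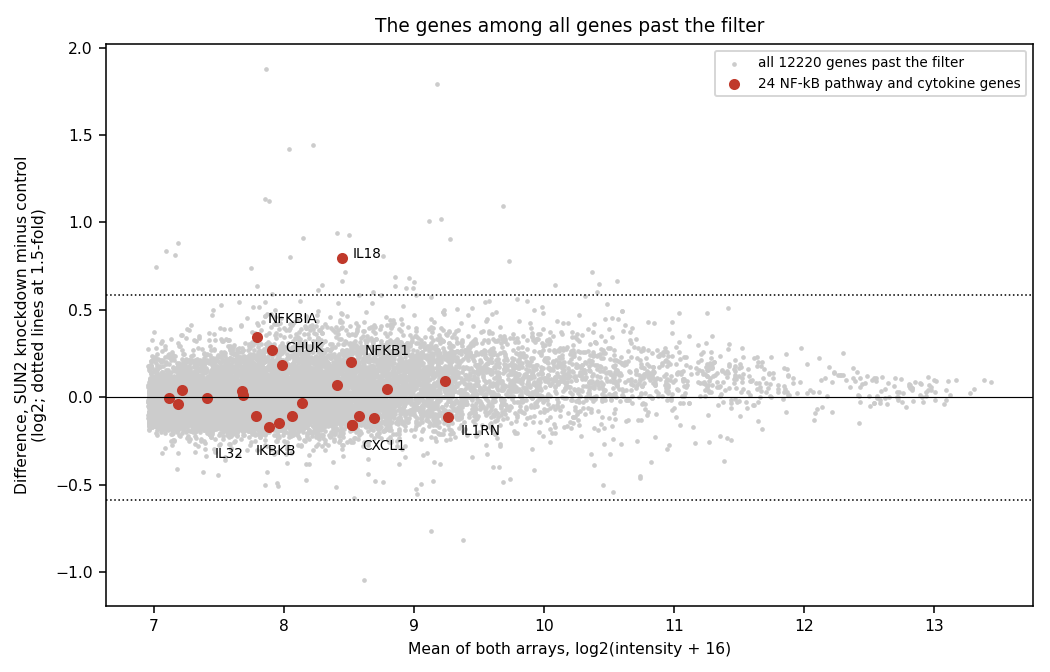
Difference between the SUN2 knockdown and the control against the mean of both arrays, both in log2(intensity + 16), for the 12220 genes past the filter (grey) and the 24 genes of the pathway (red), with dotted lines at 1.5-fold. IL18 is the 1 red point above the upper line, and the other 23 lie between -0.17 and 0.34.

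By their median the 24 genes lay close to all genes under the main settings. Their median difference was -0.003, with quartiles of -0.11 and 0.07, beside a median of -0.0009 and quartiles of -0.08 and 0.11 over all 12220. Of the 24, 11 were higher and 13 lower, where 49.8% of all genes were higher and 50.2% lower. A difference under 1.1-fold was found for 62.5% of the 24 and for 70.4% of all genes. Without IL18, the largest value among the other 23 was the 0.34 of NFKBIA. No member reached 2-fold, which 0.0736% of all genes did upward and 0.00818% downward. By role, the 3 chemokine genes past the filter had a median of -0.16, the 6 cytokine genes -0.11 and the 5 inhibitors 0.01. The chemokine median rests on the brightest probe sets of CXCL1 and CXCL16. The other CXCL16 probe set differed by 0.02, and the other CXCL1 probe set, at 0.08, was below the median. The median of all genes shifted with intensity, from -0.04 in the dimmest of 10 equal bins to 0.10 in the brightest.

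The consensus shown for the chemokine genes was searched on both strands of RefSeq promoter windows, from 250 bases before to 50 after each start, with overlapping matches on the 2 strands taken as 1 site. Windows existed for 34 of the 42 genes, some with more than 1 start. Those not in the table were IL15, CXCL16, LIF, RELB, CSF1, NFKBIE, IL18 and IKBKB. The motif was present for 16 of the 34 genes, or 47.1%, and for 7.83% of the 27305 genes in the table. As the genes were chosen for their place in this pathway, that contrast is no result of these arrays. Among genes past the filter the motif was present for 58.8% of the 17 members with a window and for 9.73% of all 9904. All 5 inhibitors with a window held it (NFKBIA, NFKBIB, NFKBIZ, TNIP1 and TNFAIP3), as did 5 of 6 chemokine genes (CCL20 besides those shown), 3 of 4 subunit genes (NFKB1, NFKB2 and REL) and 3 of 7 cytokine genes (IL1RN, IL32 and IL6). None of the 6 receptor and adaptor genes, the 2 IKK genes or the 4 other induced genes did. A match describes letters and does not show binding. Lack of a match to this 1 consensus in this window does not show that a gene has no NF-kB site.

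The windows of NFKBIA and NFKB1 are printed because both genes carry the motif and read higher in the knockdown array, by 0.34 and 0.20. They are the RefSeq windows chr14:35404700-35404999 on the minus strand and chr4:102501109-102501408 on the plus strand of GRCh38.p14, read 5′ to 3′ on the strand of the gene. Capitals mark the match, which in NFKBIA is read on the opposite strand. The window at a second NFKB1 start held no match.
NFKBIA: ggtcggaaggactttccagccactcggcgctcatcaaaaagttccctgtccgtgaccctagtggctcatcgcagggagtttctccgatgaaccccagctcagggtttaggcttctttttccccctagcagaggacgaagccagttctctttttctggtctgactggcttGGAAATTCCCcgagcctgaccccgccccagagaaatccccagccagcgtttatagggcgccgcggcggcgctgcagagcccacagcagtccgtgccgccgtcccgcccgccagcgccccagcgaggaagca
NFKB1: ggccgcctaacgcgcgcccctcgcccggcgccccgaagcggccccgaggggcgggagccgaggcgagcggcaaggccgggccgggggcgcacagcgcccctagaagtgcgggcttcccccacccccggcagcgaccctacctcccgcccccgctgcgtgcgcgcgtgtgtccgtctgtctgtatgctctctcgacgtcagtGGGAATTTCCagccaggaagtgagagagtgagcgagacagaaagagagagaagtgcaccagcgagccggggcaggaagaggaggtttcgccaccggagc
Genes with the motif did not move as a group. Of the 10 past the filter with a match, 5 were higher and 5 lower, with a median of -0.01 and values from -0.16 for CXCL1 to 0.34 for NFKBIA. Of the 7 past the filter with a window and no match, 4 were higher and 3 lower, with a median of 0.03. CHUK, at 0.27, was among those without a match.

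Further genes of the pathway, none of them among the 42, gave 17 higher and 14 lower of 31 past the filter, from a list of 50 signalling genes with a median of 0.02. None was 25% higher or 20% lower. The 4 largest differences were increases. TNFRSF12A, the receptor of the cytokine TWEAK, read 539 in the knockdown array and 434 in the control array, a difference of 0.30. IRAK1, a kinase below MYD88, read 209 in the knockdown array and 170 in the control array, a difference of 0.28. LTBR, the lymphotoxin receptor that feeds the non-canonical branch, differed by 0.25 on its brightest probe set and by 0.03 on the other. TICAM1, the adaptor of TLR3, differed by 0.23 on its only probe set.

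Of 40 further target genes, 24 passed the filter, with 11 higher, 13 lower and a median of -0.06. IER3, an early response gene that NF-kB and ERK both induce, read 1447 in the knockdown array and 1982 in the control array, a difference of -0.45 on its only probe set. It was the only one 20% or more lower, and none was 25% or more higher. CEBPD, an acute-phase transcription factor, differed by 0.24, with 4 probe sets above the median between 0.07 and 0.33. CD83, a maturation marker of dendritic cells, differed by 0.20. CFLAR, an inhibitor of caspase 8, differed by -0.19. The other 16 target genes were below the median.

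Receptors for the secreted members and the STAT3 route below IL6ST were also followed. Of 20 receptor genes, IL6R and IL6ST included, 11 passed the filter, with 5 higher, 6 lower and a median of -0.02. IL15RA, which presents IL-15, differed most, by 0.19 on its brightest probe set and by -0.04 on the other above the median. It was followed by CSF2RB at -0.13, TNFRSF1A, the main TNF receptor, at 0.09 and LIFR at 0.07. CXCR2, the receptor of the neutrophil chemokines, read 278 in the knockdown array and 277 in the control array. Of 14 STAT3 pathway genes, 12 passed the filter, with 5 higher, 7 lower and a median of -0.07. MYC, a growth-promoting transcription factor with many inputs besides STAT3, read 898 in the knockdown array and 642 in the control array, a difference of 0.48 on its only probe set. STAT3 itself differed by 0.22 on its brightest of 3 probe sets, which ran down to -0.04. PTPN11, a phosphatase of cytokine receptors, differed by 0.22, and PIM1, a kinase induced by STAT3, by -0.19.

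**Figure D4:**
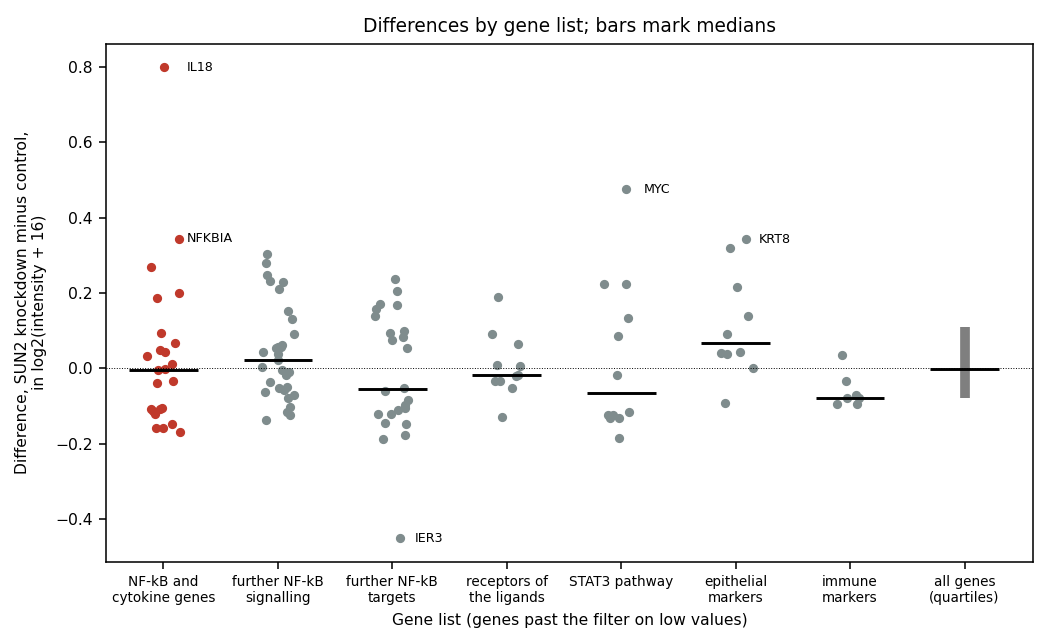
Difference between the SUN2 knockdown and the control in log2(intensity + 16) for each gene past the filter, by gene list, with a bar at the median of each list and, at the right, the median and quartiles of all genes. IL18 at 0.80, MYC at 0.48 and IER3 at -0.45 lie farthest from 0, while the list medians lie between -0.08 for immune markers and 0.07 for epithelial markers.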

How the data were processed

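Each array had 1 column of probe set intensity values, deposited by the authors in linear units. MAS5 and RMA are named in the submitters' processing notes, without their role, and whether the arrays were scaled to each other was not stated there. The lowest intensity was 29.965 in the knockdown array and 30.75 in the control array, so background remained in the values and folds of dim genes may be understated. Of 23 background control probe sets, 20 were lower in the knockdown array.

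Of 49293 probe sets other than the 102 controls, 44988 had 1 gene symbol, and symbols were updated through the Entrez ID in RefSeq (44961 matched). Differences were computed on log2(intensity + 16). The brightest probe set represented a gene, and the filter was the median of both arrays' mean. With 1 array per group no test was possible, and genes were counted past fixed folds of 1.5 and 2 and past a 25% increase or 20% decrease. The steps were tested on simulated data. All measured genes are named, and of each further list the 4 largest differences and any past 1.5-fold. Genes and lists were chosen with earlier results of these data known. Alternatives were median centring, quantile normalization, loess (span 0.3), normexp background correction (limma 3.58.1), the mean of all probe sets, no _x_at or _s_at classes, 3 other filters and pseudocounts of 1 and 64. The number of arrays limits the precision. Python 3.11.15 was used.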

Additional observations from a re-analysis of the deposited data

How the results depend on the processing

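Across 11 alternatives IL18 kept its increase, between 0.70 and 0.89, in the 10 that gave it a value. Leaving out the _x_at and _s_at classes removes its only probe set, so 0 genes were then at least 1.5-fold higher. Under the other alternatives IL18 remained the 1 such gene, and none was 1.5-fold lower. NFKBIA ran from 0.27 to 0.41, CHUK from 0.22 to 0.32 and NFKB1 from 0.15 to 0.22. CXCL1 ran from -0.21 to -0.04. TNFAIP2 turned to -0.14 at its lowest. Of the 24 genes past the filter, 15 kept their sign under every alternative that gave them a value. With the mean of all probe sets 7 of the 24 were higher. Without a filter 18 genes were higher and 21 lower, and with the 25th percentile as filter 21 were lower, since more genes were counted. The median of the members past the filter ran from -0.07 to 0.02. It was lowest with the 75th percentile as filter, over 18 genes, where the median of all genes past that filter was 0.04. The STAT3 list median was 0.087 when those 2 classes were left out and 0.11 with the 75th percentile as filter, against -0.07, on fewer genes. No paired analysis was possible because there is only 1 array per group, and none could be left out. Signal over background limits the genes past the filter as well as the 15 genes below the median.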

Other observations

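1 probe set with the symbols of both CXCL5 and GLYR1 read 252 in the knockdown array and 206 in the control array, a difference of 0.27, and names neither gene.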
